A study of Caenorhabditis elegans with 4 samples.

Results

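The pals genes of *Caenorhabditis elegans* were examined for occupancy by HPL-2, a member of the heterochromatin protein 1 family, which binds histone tails methylated in silent chromatin. The members were all genes whose symbol is pals followed by a number in the RefSeq gene table of the WBcel235 assembly, which gave 39 genes of the 46890 on the 6 nuclear chromosomes. Of these, 38 are protein-coding and pals-36 is a pseudogene. The series holds 2 libraries of DNA precipitated with the polyclonal rabbit antibody SDQ2340, raised against HPL-2, and 2 input libraries that were not analysed here. All came from whole wild-type N2 larvae at the L3 stage, a population of males and hermaphrodites grown at 20 °C. All samples were treated with the cross-linker EGS, with 20 min given for EGS and 10 min for EGS with formaldehyde. Each library pools many animals and all their tissues, so a peak cannot be assigned to a cell type. The labels do not state if the 2 replicates were grown separately, and SDs here may hold technical spread alone.

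The pals family is named for a protein signature of unknown biochemical function, and the family is expanded in this nematode. Many members are induced together in the intestine when microsporidia or the Orsay virus infect it, in a transcriptional programme called the intracellular pathogen response, and pals-5 is the usual reporter of that programme. Other members control it. In *C. elegans* genetics, pals-22 holds the response off and its neighbour pals-25, in the same operon, turns it on, while pals-17 acts as a repressor and pals-16 and pals-20 as activators.

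Occupancy was read from 3 deposited lists of MACS peaks, with 20533 peaks in replicate 1, 16490 in replicate 2 and 23530 in the series-level list. A gene was called bound when its body plus 500 bp on either side overlapped a peak in all 3 lists by at least 1 bp. The gene table gives no strand, so both sides were used in place of the upstream side alone. For all 39 pals genes the call was the same with either side alone. Peaks are on WS220 and genes on WBcel235, so calls were repeated with genes lengthened or shortened by 150 bp. A score accompanies each peak, and its percentile within the same list is given here. The threshold and the read depth behind the lists are unknown, so a gene without a peak is not shown to lack HPL-2.

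HPL-2 peaks were few on the pals genes, and the 14 genes of a single cluster on chromosome I included no bound member. Bound members numbered 4 of 39 (10.3%): pals-1 on chromosome I, and pals-24, pals-18 and pals-26 on chromosome III. By the same rule 17.2% of all genes and 24.7% of protein-coding genes were bound. With the gene body alone the same 4 members were called, against 11.1% of all genes and 17.8% of protein-coding genes. With 500 bp beside 1 end of the gene, the share of protein-coding genes was 21.4% for the lower end and 21.5% for the higher end. No test was made of these differences, and neighbouring pals genes are not independent of each other.

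In single lists the members hit by a peak were also few. Replicate 1 had a peak at 6 of 39 members (15.4%), against 37.0% of protein-coding genes. Replicate 2 had a peak at 8 members (20.5%), against 30.8% of protein-coding genes. The series-level list had a peak at 7 members (17.9%), against 41.7% of protein-coding genes. Over all genes the shares were 27.5% in replicate 1, 21.6% in replicate 2 and 30.8% in the series-level list. In replicate 2 the pals share was thus near that of all genes. Summed over the family, peaks covered 1.87% of the gene body bases in replicate 1 and 1.79% in replicate 2, a mean of 1.83% ± 0.057 (SD, n = 2). The replicate 2 sum counts 193 bp of a single peak in each of the overlapping genes pals-3 and pals-12. By member the replicates differed more: 318 and 90 bp were covered in pals-18, 0 and 213 bp in pals-25, but 607 and 567 bp in pals-24. The SD of the summed share therefore does not give the spread at single genes. Over all protein-coding genes the shares were 8.90% and 5.89%, a mean of 7.39% ± 2.13 (SD, n = 2). The median covered share was 0.0% for pals genes and also for all protein-coding genes in each replicate list.

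**Figure D1:**
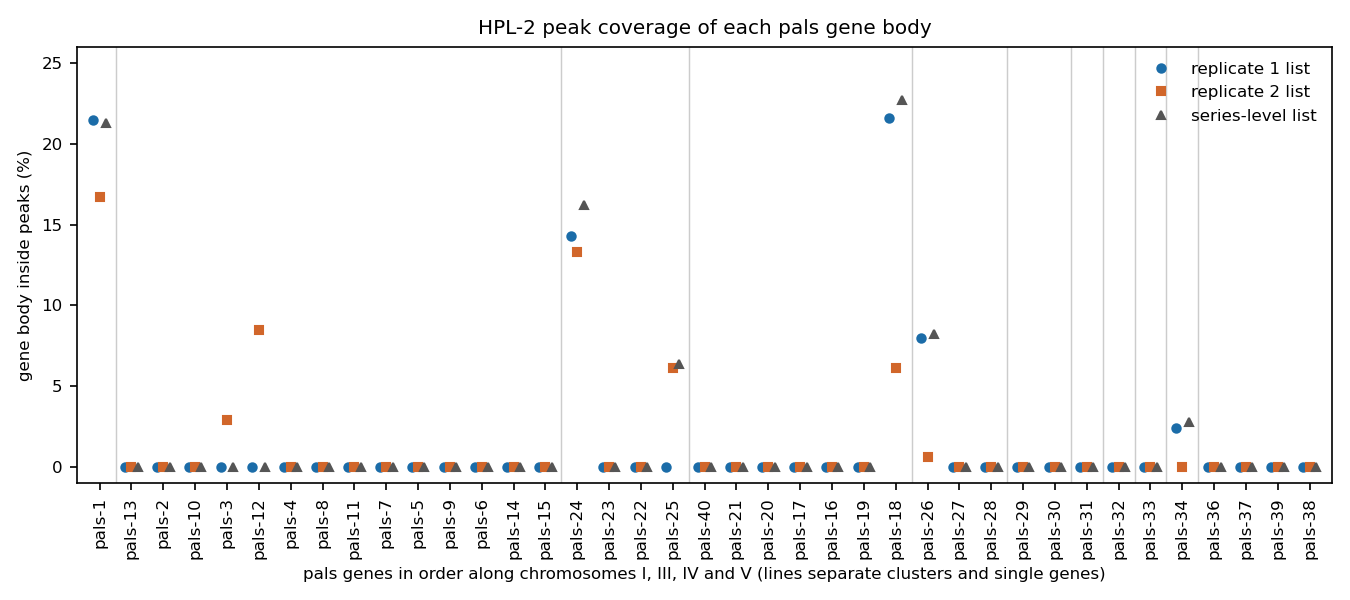
Share of each pals gene body inside HPL-2 peaks (percent, vertical axis) for the 39 genes in chromosome order, with a point for each of the 3 peak lists and grey lines between clusters. Points stand clear of 0 in both replicate lists at pals-1, pals-24 and pals-18, while pals-26 has 7.96% in replicate 1 and 0.59% in replicate 2.

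The highest mean covered share of a pals gene body was that of pals-1, a lone member on the right arm of chromosome I. Peaks covered 21.5% of its 2134 bp body in replicate 1 and 16.7% in replicate 2, a mean of 19.1% ± 3.35 (SD, n = 2). The body peak ran from 11580538 to 11580995 in replicate 1 and from 11580595 to 11580951 in replicate 2 (WS220). Its score stood at the 93.3rd percentile of the replicate 1 list and the 81.2nd percentile of the replicate 2 list. All of that peak was inside the gene, at 682 bp from the lower end and 994 bp from the higher end in replicate 1. Replicate 1 and the series-level list each had a further peak beside either end of pals-1, and replicate 2 had neither. The peak beside the lower end overlapped the transfer RNA gene F15D3.t1.

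Another interior signal was seen in pals-24, the first gene of the cluster that holds the regulators pals-22 and pals-25. Both replicates had a pair of peaks inside it. In replicate 1 they ran from 121302 to 121479 and from 122145 to 122573 on chromosome III, and in replicate 2 from 121283 to 121490 and from 122115 to 122473. Peaks covered 14.3% of the 4256 bp body in replicate 1 and 13.3% in replicate 2, a mean of 13.8% ± 0.66 (SD, n = 2). The higher-scoring peak of the pair was at the 83.5th percentile in replicate 1 and the 89.4th in replicate 2. The other peak was at the 29.5th and the 85.5th. Both replicates thus gave this gene a close level of coverage, while the score rank of the other peak differed widely.

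At the remaining bound members the peaks sat on the edges of the gene. For pals-18, replicate 1 had a peak over each end, from 1404653 to 1404865 and from 1406020 to 1406509 on chromosome III. In replicate 2 only the lower end was marked, from 1404607 to 1404881. Covered shares of its 1472 bp body were 21.6% in replicate 1 and 6.11% in replicate 2, a mean of 13.9% ± 11.0 (SD, n = 2). The peak over the higher end also overlapped the adjacent gene Y82E9BR.22.

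The peak called at pals-26 (B0284.1), a gene induced in the intracellular pathogen response, lay mostly outside it. It ran from 4378609 to 4379289 in replicate 1 and from 4378886 to 4379240 in replicate 2 on chromosome III, and it also overlapped srpr-1.1. Its scores were at the 94.0th and 89.9th percentiles. The overlap with the 3754 bp body was 299 bp in replicate 1 and 22 bp in replicate 2, which is less than the 150 bp allowed for the difference between assemblies. With gene bodies shortened by 150 bp at each end, 2 members were bound, pals-1 and pals-24. With the 500 bp flanks kept, shortening the genes left all 4.

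Some members had a peak in part of the lists. In pals-25, replicate 2 had a peak from 136874 to 137086 (59.4th percentile) and the series-level list had one from 136855 to 137075 (32.1st percentile), but replicate 1 had none in the gene, and its nearest peak was 2.59 kb away. pals-34 had a peak over its lower end in replicate 1, from 7955265 to 7955429 on chromosome V, of which 26 bp lay in the gene, and no replicate 2 peak within 30.4 kb. Beside pals-30, replicate 1 had a peak of 161 bp at a distance of 0.147 kb, at the 5.44th percentile of scores, while the nearest replicate 2 peak was 16.8 kb away. Replicate 2 alone had a peak of 146 bp beside pals-20, at a distance of 0.397 kb and at the 9.10th percentile. The overlapping genes pals-3 and pals-12 shared a single replicate 2 peak, from 13109435 to 13109627 on chromosome I, at the 59.4th percentile. That peak counts for both genes but is 1 event.

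Among unbound members, pals-19 had the smallest of the largest distances over the 3 lists, at 1.19 kb in replicate 1, 1.15 kb in replicate 2 and 1.14 kb in the series-level list. pals-22 lay just outside the 500 bp limit in replicate 1 and the series-level list. Its nearest peak was 0.517 kb away in replicate 1, 0.501 kb in the series-level list and 2.47 kb in replicate 2. It was not bound with 150 bp padding or with 1000 bp on either side, since replicate 2 had no peak in reach. Its neighbour pals-23 had its nearest peak at 2.21 kb in replicate 1 and 2.31 kb in replicate 2.

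By position, 34 pals genes fell into 6 clusters in which neighbours were at most 50 kb apart, and 5 genes stood alone. The clusters held 3 of the bound members and the lone genes 1. Within the spans of the clusters there were 10 protein-coding genes of other names, of which 2 were bound, C29F9.12 and B0284.3. Neither had a base of its body in a peak in any list. Their flanks reached the peaks that made pals-24 and pals-26 bound, so these calls are not separate events. Another 61 lay beside the clusters, touching the 20 kb on either side, and 12 of them were bound (19.7%). Over all protein-coding genes the share was 24.7%.

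The largest cluster lay on the right arm of chromosome I and was nearly free of peaks. Its 14 genes, from pals-13 to pals-15, span 61.3 kb and include the reporter gene pals-5 and pals-14. No member was bound. Replicate 1 and the series-level list had 0 peaks in the span and replicate 2 had 1, the peak shared by pals-3 and pals-12. The right arm of this chromosome carried 300.9 peaks per Mb in replicate 1 and 264.7 in replicate 2, and 40.6% of its protein-coding genes were bound. The 2 other protein-coding genes within the span, C17H1.2 and Y26D4A.21, were not bound either.

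In the replicate 1 list the cluster sat whole inside a stretch of 85.6 kb without a peak, between the end of a peak at 13069271 and the start of the next at 13154884. That was the longest of 4211 gaps between peaks on chromosome I, where the median gap was 0.757 kb. In the series-level list it sat in the longest of 4769 gaps, also of 85.6 kb. In replicate 2 the longest gap touching the cluster was 38.2 kb, ranked 56 of 3306. Within replicate 1 the distance from pals-5 to the nearest peak was 22.4 kb, and from pals-4, near the middle, 38.5 kb. In replicate 2 these distances were 15.1 kb and 3.86 kb. Beyond the cluster, F22G12.4 had 67.4% of its body in peaks in replicate 1 and 54.8% in replicate 2. Whether reads can be placed uniquely in the stretch without peaks, and whether the input libraries have reads there, was not tested.

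On chromosome V a cluster of 4 genes, pals-36, pals-37, pals-39 and pals-38, had no peak in any of the 3 lists. The cluster spans 12.6 kb in the chromosome centre, where 10.2% of protein-coding genes were bound. It lay inside a stretch without peaks of 103.5 kb in replicate 1 (ranked 3 of 3651 gaps on the chromosome), 69.1 kb in replicate 2 (ranked 37 of 3090) and 89.5 kb in the series-level list (ranked 5 of 4364). None of the 11 other protein-coding genes that touch the 20 kb on either side was bound. Input reads and unique placement of reads in this stretch were not tested either.

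The 3 clusters on the left arm of chromosome III were more mixed, and each held 1 bound member. The cluster of pals-24, pals-23, pals-22 and pals-25 spans 17.5 kb and had 3 peaks in each replicate, with 4.58% of the span in peaks in replicate 1 and 4.45% in replicate 2. The cluster of 7 genes from pals-40 to pals-18, which includes the regulators pals-20, pals-17 and pals-16, spans 29.3 kb and had 4 peaks in replicate 1 and 2 in replicate 2, with 2.61% and 1.44% of the span covered. The cluster of pals-26, pals-27 and pals-28 spans 12.6 kb and had 2 peaks in replicate 1 and 1 in replicate 2, with 7.21% and 2.82% covered. The arm as a whole had 19.4% of its bases in replicate 1 peaks and 14.5% in replicate 2 peaks, and 48.2% of its protein-coding genes were bound. Thus the 3 spans were covered less than the arm around them in both replicate lists.

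Inside the cluster of regulators, pals-16, pals-17 and pals-20 had no base of the gene body in a peak in any list. pals-17 had its nearest peak at 0.596 kb in replicate 1 and 3.85 kb in replicate 2, and pals-16 at 2.28 kb and 3.21 kb. At pals-20 the distances were 4.12 kb and 0.397 kb. Further along, pals-19, pals-21 and pals-40 were also free of peaks in the gene and its 500 bp flanks in every list.

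**Figure D2:**
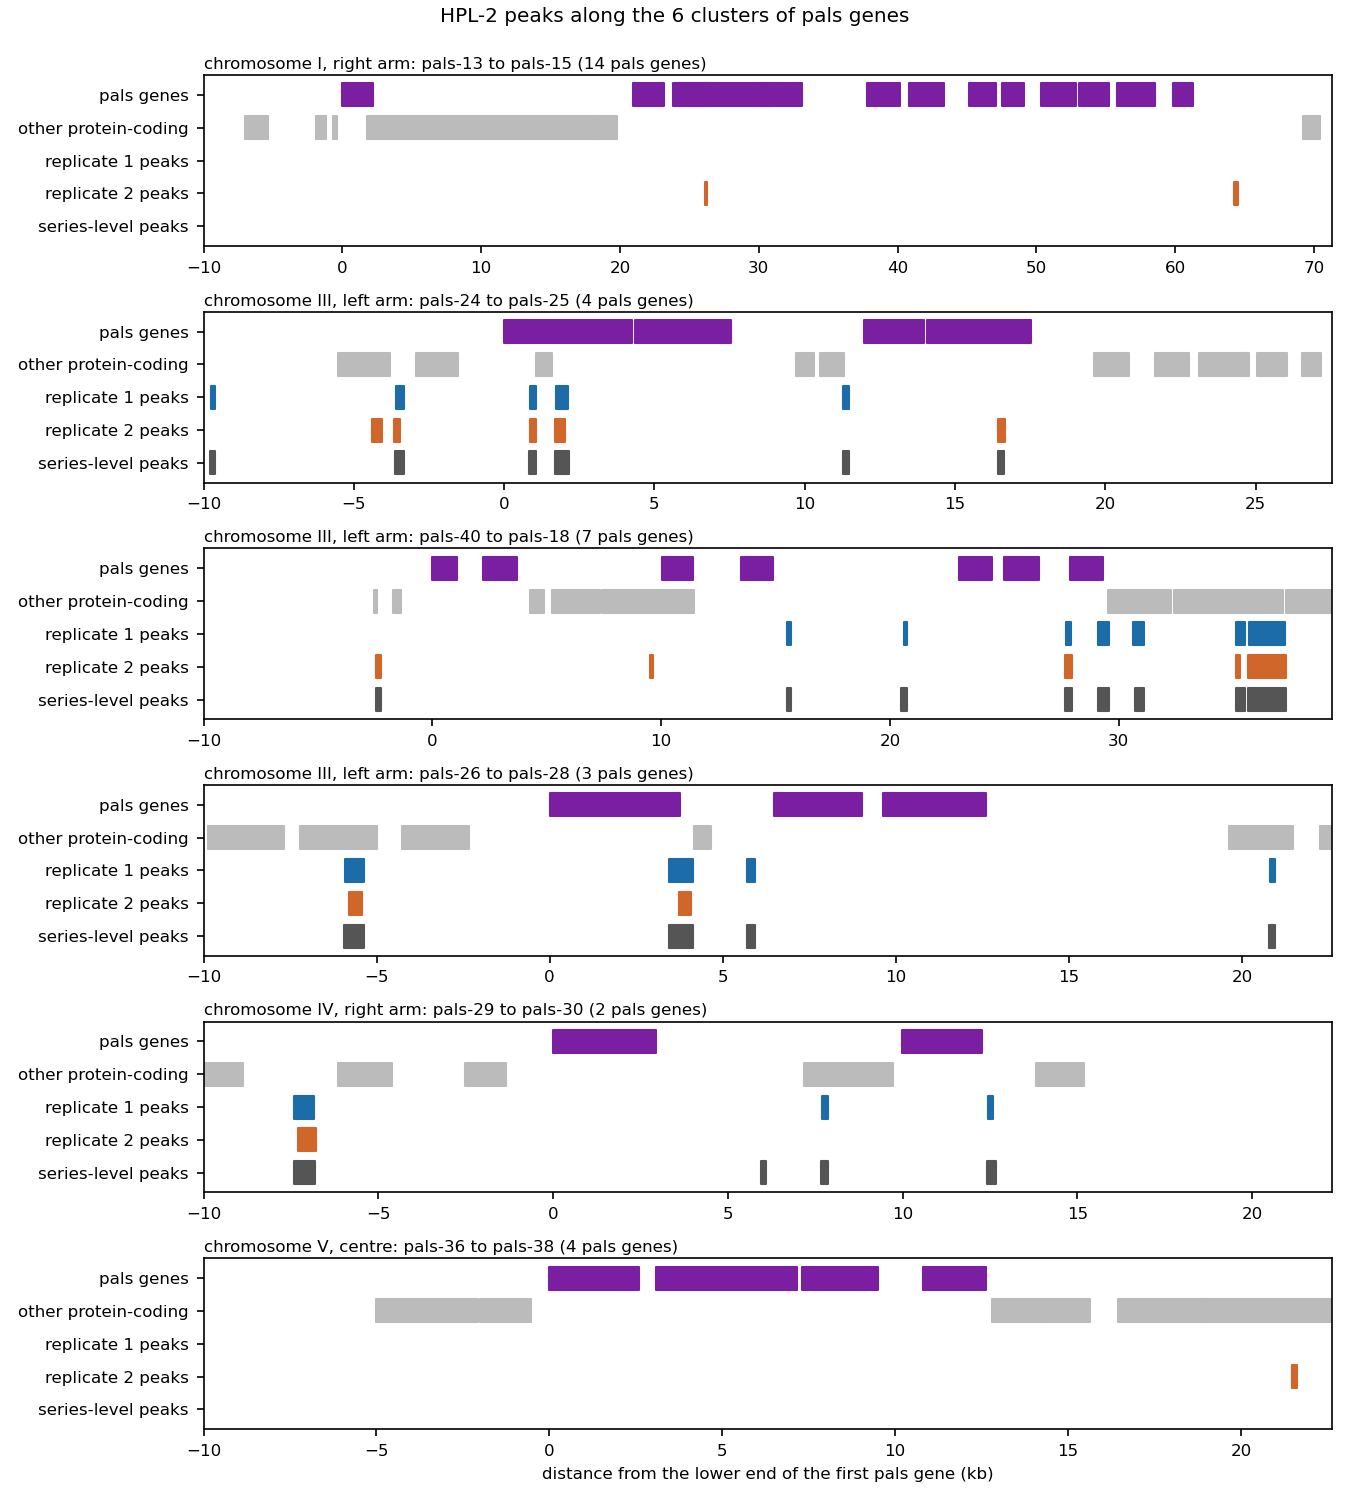
Map of the 6 pals clusters, with distance from the lower end of the first pals gene (kb) on each horizontal axis, pals genes in purple, other protein-coding genes in light grey and the peaks of the 3 lists below them. Genes are on WBcel235 and peaks on WS220, drawn without conversion. Only replicate 2 has a peak in the 61.3 kb of the chromosome I cluster, no list has a peak in the chromosome V cluster, and each chromosome III cluster has peaks of all 3 lists.

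The other members were the pair pals-29 and pals-30 on the right arm of chromosome IV, where 24.2% of protein-coding genes were bound, and 4 unbound lone genes on chromosome V. The span of the pair, 12.3 kb, had 1 peak in replicate 1, 0 in replicate 2 and 2 in the series-level list, none of them within a pals gene. pals-31, pals-32 and pals-33 on the left arm of chromosome V, where the share was 22.5%, had no peak in the gene body or its 500 bp flanks in any list. Their nearest replicate 1 peaks were at 0.684 kb, 5.43 kb and 1.96 kb, and their nearest replicate 2 peaks at 2.15 kb, 14.4 kb and 6.66 kb.

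**Figure D3:**
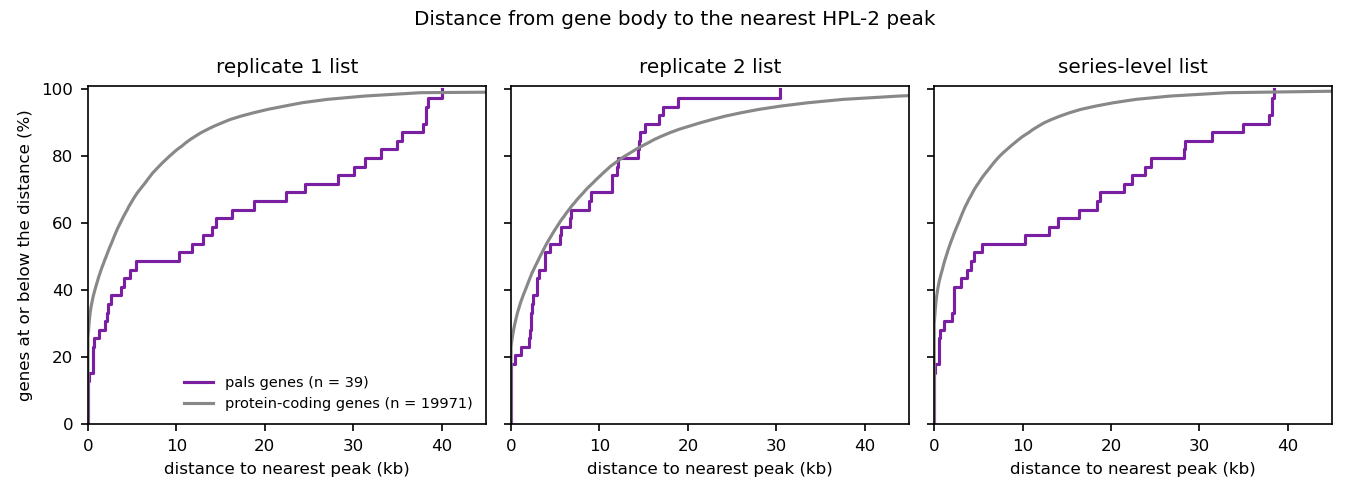
Cumulative share of genes (percent, vertical axis) by distance from the gene body to the nearest HPL-2 peak (kb, horizontal axis), for the 39 pals genes in purple and 19971 protein-coding genes in grey, in each peak list. The purple curve runs below the grey one over most distances in replicate 1 and the series-level list, with medians of 10.3 and 4.46 kb. In replicate 2, where the pals median is 3.86 kb, it runs below the grey curve at short distances and above it at long ones. In that list 25% of pals genes lie within 2.07 kb of a peak, against 0.0915 kb for protein-coding genes. For 95% of genes the distances are 17.4 kb and 30.5 kb.

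How far pals genes lay from HPL-2 peaks differed between the replicate lists. The median distance from a pals gene to the nearest peak was 10.3 kb in replicate 1 and 3.86 kb in replicate 2, against 2.05 kb and 3.26 kb for protein-coding genes. No peak lay within 5 kb of 21 pals genes (53.8%) in replicate 1, 18 (46.2%) in replicate 2 and 19 (48.7%) in the series-level list. Among protein-coding genes the shares were 33.4%, 41.8% and 28.1%. The chromosome I cluster supplied 14, 8 and 14 of these members in the 3 lists. Outside that cluster 7 of 25 pals genes (28%) had no peak within 5 kb in replicate 1, 10 (40%) in replicate 2 and 5 (20%) in the series-level list, each below the share of protein-coding genes. At the 5 kb limit the excess of distant pals genes in all 3 lists was therefore that of the chromosome I cluster. Without it the direction turned, though by little in replicate 2 (40% against 41.8%). Other limits were not compared, and distant members also lay outside it. The 4 genes of the chromosome V cluster were 30.05 to 40.09 kb from the nearest replicate 1 peak. Outside the chromosome I cluster 4 of 25 pals genes (16%) were bound with flanks, against 17.2% of all genes and 24.7% of protein-coding genes. The same 4 were bound by the gene body, against 11.1% and 17.8%. Without that cluster the bound share was thus below that of protein-coding genes with flanks and near it by the gene body. Against all genes it was near with flanks and above by the gene body. On the left arm of chromosome III, 3 of 14 pals genes were bound with flanks, against 48.2% of protein-coding genes there.

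Most pals genes lie on chromosome arms. With each chromosome divided into 3 equal parts, 34 of 39 were in the outer parts, or arms, and 5 in the centre of chromosome V. The right arm of chromosome I held 15 of them and the left arm of chromosome III 14. The share of all genes in the outer parts was not computed, so these counts have no background. The bound members were all on arms. In that centre 10.2% of protein-coding genes were bound, so 5 members are too few to tell it apart from the arms. The median length was 2192 bp for pals genes and 2006 bp for protein-coding genes. Protein-coding genes within the length range of the family, from 318 to 6697 bp, were bound in 20.5% of cases with flanks and 13.4% by the gene body alone. The part of sequence similarity between members in these values was not tested, since no sequence was used here.

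Each of the bound pals genes had a peak in the upper part of the score range. With each list restricted to peaks at or above its median score, the same 4 of 39 members (10.3%) were bound, against 15.0% of protein-coding genes. Without the restriction the share of protein-coding genes was 24.7%. For pals-18 that call rested on different sites, since only the peak over the higher end (79.1st percentile) was kept in replicate 1 and replicate 2 had only the peak over the lower end (62.4th percentile). No pals gene had 50% of its region covered in every list, against 0.961% of protein-coding genes.

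Other expanded families of *C. elegans* had higher bound shares than pals genes with flanks, and by the gene body alone the shares of fbxa and clec genes were within 1 percentage point of that of pals genes. Among genes named for an F-box A domain (fbxa), many of which encode adaptors for ubiquitin ligases, 43 of 222 (19.4%) were bound. MATH and BTB domain genes (math and bath), which include further ligase adaptors, had 17 of 92 bound (18.5%), and C-type lectin genes (clec), several of which respond to pathogens, had 39 of 264 (14.8%). By the gene body alone the shares were 10.3% for pals, 10.4% for fbxa, 14.1% for math and bath and 10.2% for clec. Outside the chromosome I cluster 4 of 25 pals genes (16%) were bound, with flanks and by the gene body alike. With flanks that share was above that of clec genes and below those of fbxa and of math and bath genes. By the gene body it was above that of each of these families. Peaks covered 3.05% ± 0.027 of fbxa gene bodies, 4.32% ± 1.55 of math and bath bodies and 3.51% ± 0.18 of clec bodies (mean and SD of 2 replicate lists), each above the 1.83% ± 0.057 of pals genes. In that pals value the replicate 2 peak shared by pals-3 and pals-12 counts for both genes. With flanks and only peaks at or above the median score, the order turned. The shares were then 9.91% for fbxa, 9.78% for math and bath and 7.20% for clec, against 10.3% for pals. These differences between families were not tested.

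**Figure D4:**
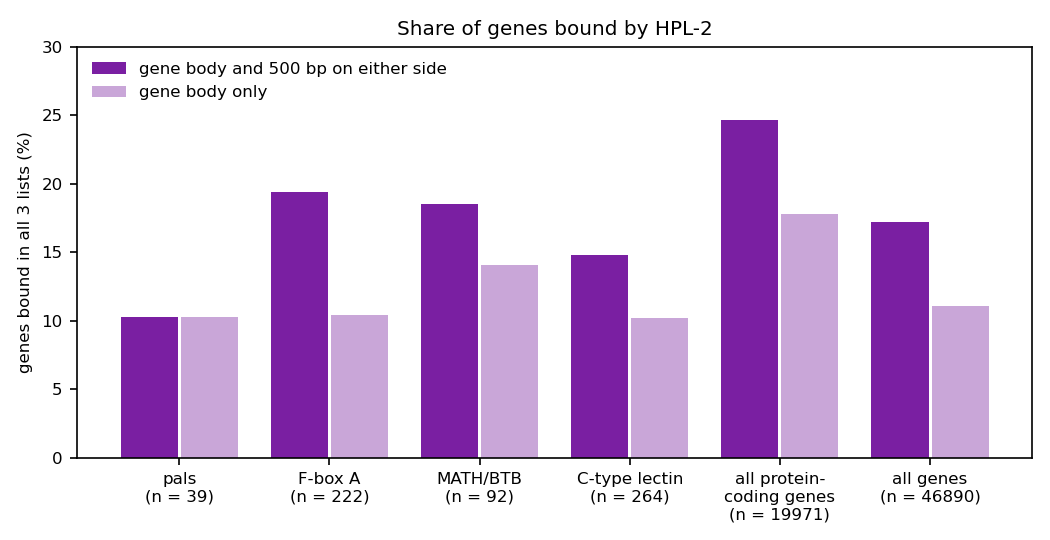
Share of genes bound in all 3 peak lists (percent, bars from 0) for pals genes, 3 other expanded families, all protein-coding genes and all genes, with the 500 bp flanks (dark) and for the gene body alone (light). The dark pals bar is the lowest at 10.3%, while the light pals bar is level with those of F-box A and C-type lectin genes. Both pals bars include the 14 unbound genes of the chromosome I cluster.

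Genes of the intracellular pathogen response outside the pals family were examined in a list of regulators and a list of response genes. Of 9 regulators, 4 were bound, and these were the 4 that are not pals genes: zip-1, pnp-1, drh-1 and lin-35. The 5 pals regulators, pals-22, pals-25, pals-17, pals-20 and pals-16, were not bound. Among 16 response genes 3 were bound, namely zip-1, pals-26 and F26F2.3. The background is 24.7% of protein-coding genes, and with so few genes in each list no test was made.

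The regulator with most of its body in peaks was zip-1, a bZIP transcription factor that drives part of the response and stands in both lists. Replicate 1 had 10 peaks and replicate 2 had 16 across zip-1 and its flanks, on the right arm of chromosome III, and they covered 63.6% and 53.4% of its 8442 bp body. The best of them stood at the 94.1st percentile in replicate 1 and the 94.6th in replicate 2. In zip-1 the widest replicate 1 peak within the gene ran from 12341424 to 12343206 and the widest replicate 2 peak from 12341720 to 12343201. Both replicates therefore placed their broadest signal in the same part of the gene.

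Coverage of the other regulators differed between replicates. pnp-1, a purine nucleoside phosphorylase that holds the response off, had 36.1% of its body in peaks in replicate 1 and 2.67% in replicate 2. lin-35, the worm homologue of the retinoblastoma protein, had 13.7% in replicate 1 and 1.89% in replicate 2, where its only peak stood at the 14.6th percentile. drh-1, a receptor for viral RNA, had 4.30% and 2.96%. These 4 bound regulators are 5848 to 8442 bp long, longer than all pals genes except pals-3 (6697 bp). Protein-coding genes from 5 to 9 kb were bound in 45.3% of cases, so the part of gene length cannot be told apart from the list here.

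Response genes outside the pals family were bound in 2 of 14 cases (14.3%), zip-1 and F26F2.3, against 17.2% of all genes and 24.7% of protein-coding genes. No peak touched the body or flanks of skr-3, skr-4, rcs-1, fbxa-75, fbxa-158, eol-1, chil-27, F26F2.1, F26F2.4 or T08E11.1 in any list. skr-3 and skr-4 encode Skp1-related proteins and rcs-1 a RING protein of the ubiquitin ligase built on cul-6, eol-1 encodes a decapping enzyme homologue, and chil-27 a chitinase-like protein. The cullin gene cul-6 had a replicate 1 peak at 0.058 kb and none in replicate 2 within 4.19 kb, and skr-5 had a replicate 2 peak at 0.329 kb but none in replicate 1 within 3.44 kb. At F26F2.3 the peak lay outside the gene, 0.181 kb away in replicate 1 and 0.237 kb in replicate 2, on 1 side only, so its call depends on the strand. pals-5 resembled these genes, with no peak in the body or flanks of the gene in any list.

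**Figure D5:**
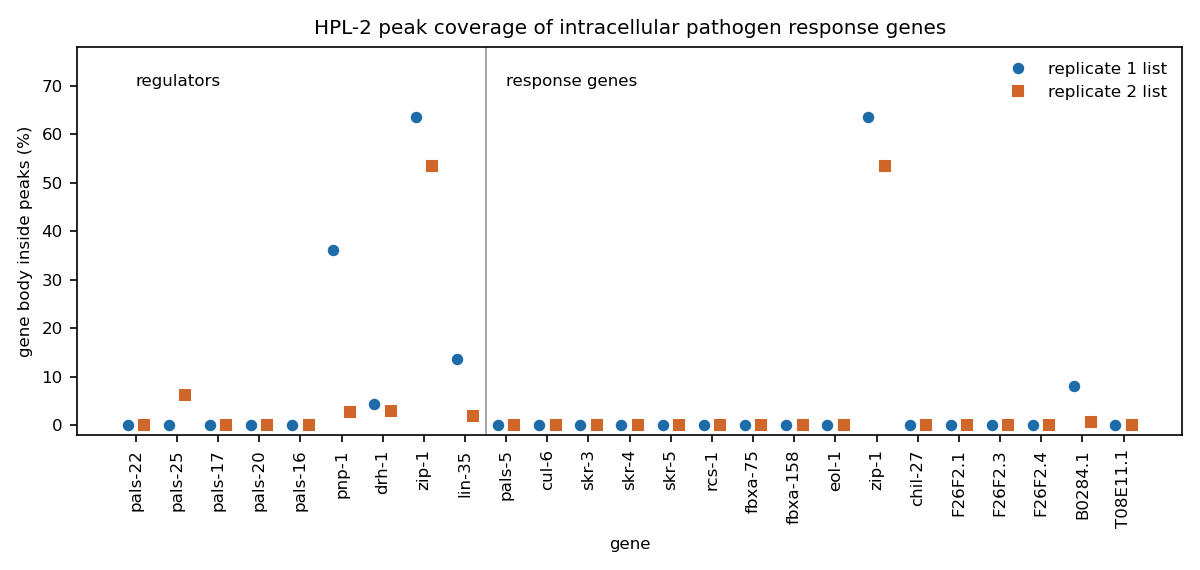
Share of the gene body inside HPL-2 peaks (percent, vertical axis) in replicate 1 (circles) and replicate 2 (squares) for 9 regulators and 16 response genes of the intracellular pathogen response, with zip-1 in both lists. zip-1 is highest in both replicates, at 63.6% and 53.4%, and most response genes are at 0.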

How the data were processed

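Peaks were called by the authors with MACS on WormBase WS220, per the file headers and the source column of the lists. The submitters' processing notes name BWA and ce10. How MACS was run, and how the series-level list was made, is not given in the sources used here. The deposited lists give a score of unstated scale per peak, used as a rank within its list only. Genes came from the RefSeq table of WBcel235, which gives no strand. The rule for the region was therefore 500 bp on either side in place of upstream, and no gene coordinates are given. Planned results on start windows, proteins and motifs were not run, since no strand or sequence was used here. Read depth is unknown.

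Covered bases and distances were computed with Python 3.11.15, numpy 2.4.6 and pandas 2.3.3, with code tested on simulated peaks. No tests were made: with 2 replicate lists, counts are set beside the same counts over all genes. Clusters join pals genes at gaps of up to 50 kb. Named genes were those with known roles, the most and least covered members of each cluster, members bound in part of the lists, and the pathway lists. Members and lists were chosen with earlier results of these data known. The limit of 5 kb, the 20 kb neighbourhoods, the gaps between peaks and the length ranges were added after the values were seen.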

Additional observations from a re-analysis of the deposited data

How the results depend on the processing

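Calls at pals genes changed little with the settings tried. Of 16 alternatives to the count of 4 bound members, 13 stayed within 1.5 times of it, and the same 4 genes were called with gene body only, 150 bp padding, 1000 bp flanks, an overlap of 100 bp, peaks at or above the median score, or the flank of either end alone. The count was 7 with the series-level list alone, 2 with gene bodies shortened by 150 bp, and 0 with at least 50% of the region covered, and 5 to 6 when 1 replicate list was left out. These settings loosen or tighten the rule by construction. With the series-level list alone 78 fbxa, 34 math and bath and 77 clec genes were bound (35.1%, 37.0% and 29.2%, against 17.9% of pals genes). With peaks at or above the median score the counts were 22, 9 and 19 (9.91%, 9.78% and 7.20%). Each of these shares was below the 10.3% of pals genes under that setting. With 50% of the region covered the counts were 0, 0 and 2. With the gene body only, 23 fbxa genes were bound. Leaving out a replicate list gave 52 to 68 fbxa, 20 to 30 math and bath and 53 to 55 clec genes. The covered share of pals gene bodies was 1.79 to 1.87% with 1 replicate list, 2.23% in the series-level list, 2.12% with 150 bp padding and 1.70% with peaks at or above the median score. The number of clusters was 6 with gaps of up to 20 or 100 kb. Results without close protein copies and for windows at gene starts were not run. No paired analysis was possible because only ChIP libraries have values here. Peak lists without read counts limit every statement to peaks above an unknown threshold.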

Other observations

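The genes around lone pals genes differed widely in HPL-2 coverage. Over the 5 lone genes, 12 of 53 protein-coding genes that touch the 20 kb on either side were bound (22.6%), against 24.7% of all protein-coding genes. Around pals-1, itself bound, 6 of 8 such neighbours were bound, on an arm where 40.6% of protein-coding genes were. Among them were unc-75, an RNA-binding protein gene of neurons (52.3% of its body in replicate 1 peaks and 37.7% in replicate 2 peaks), and spe-9, needed by sperm for fertilization (46.4% and 16.8%). pals-33, which was not bound, had 4 bound neighbours of 7, on an arm where 22.5% of protein-coding genes were bound. These were W08A12.2 (81.5% and 43.0%), W08A12.3 (78.9% and 48.8%), acr-23 (45.3% and 44.1%) and unc-132 (44.4% and 17.3%). On the same arm 1 of 16 neighbours of pals-31 and 1 of 12 of pals-32 were bound, and pals-34 in the centre of chromosome V had 0 of 10. Among genes that touch the 20 kb on either side of the cluster ending at the bound gene pals-18, Y82E9BR.3 had its whole body in peaks in both replicates. It is not the gene next to pals-18. The neighbours named here were chosen by their values.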
